A study of Mus musculus with 4 samples.

Results

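The contrast described here asked, gene by gene, whether the change over 7 days of recovery from a liver injury diet differed between mice labelled OGT-KO and mice labelled control. For each gene, the log2 change from no recovery to 7 days was taken in each label, and the change in control was subtracted from the change in OGT-KO. A positive difference therefore marks a gene whose level moved further up, or less far down, during recovery under the OGT-KO label, and a negative difference marks the opposite. Levels are in CPM, reads per 1000000 reads of the library. The comparison was made where the mean over the 4 libraries reached 10 CPM, which kept 8963 of the 13903 genes in the deposited table. Of these, 245 had a difference of at least 2-fold and are the genes described below.

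Bulk mRNA-seq had been done on whole mouse liver. All mice were OGT-floxed, on the C57BL/6J background, and had been fed the choline-deficient, ethionine-supplemented (CDE) diet, the controls included. Mice labelled OGT-KO had been given AAV8-TBG-CRE, and mice labelled control AAV8-TBG-eGFP. The TBG promoter drives Cre in hepatocytes, so other liver cells keep an intact Ogt. RNA from 3 mice, mixed equally, made up each library, and each label had 1 library with no recovery and 1 library after 7 days. Pooling hides the spread between mice, and with 1 library per condition no difference below has a replicate check. The age and sex of the mice were not given in the sources used here.

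OGT adds O-linked N-acetylglucosamine (O-GlcNAc) to serine and threonine residues of nuclear, cytosolic and mitochondrial proteins, and OGA removes it. The CDE diet causes fatty liver, hepatocyte death and an expansion of bile duct and progenitor-like cells. When the diet is withdrawn, hepatocytes normally regain their metabolic genes while inflammation and matrix deposition recede.

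The libraries held 19972699 to 22866431 reads on the listed genes, and 3 reads, taken as the floor, were worth 0.131 to 0.150 CPM. Ogt had 55.3 CPM with no recovery and 77.7 CPM after 7 days under the OGT-KO label, against 64.7 and 55.7 CPM under the control label. As deposited, the whole-gene level thus went against the label after 7 days, with a gap between the labels of 0.47. That gap was 0.03 with upper-quartile and -0.20 with median-ratio scaling of the libraries. Every direction below is a direction between labels. The difference between the recoveries for Ogt itself was 0.70 (95% counting interval 0.54 to 0.85), under 2-fold. Oga had 46.5 and 57.0 CPM under OGT-KO and 57.7 and 70.2 CPM under control, a difference of 0.01 (-0.15 to 0.17). Counting intervals for differences, here and below, come from the read counts and cover neither differences between mice nor library preparation. The tissue label was checked with hepatocyte identity genes such as albumin and apolipoproteins, of which 30 were compared and which summed to 79740 to 127779 CPM in the 4 libraries. Markers of T, NK and B cells were nearly absent, with a sum of at most 37.9 CPM over the 13 in the table and none compared. Pancreatic acinar genes summed to 78.6 CPM in the OGT-KO library taken before recovery and to 9.57 to 21.8 CPM in the others. Of the 12 in the table, Cela1 alone passed the mean filter (difference -0.67), so no called gene is on that list. In bulk RNA, fewer cells of a type and less RNA per cell cannot be told apart.

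Positive differences outnumbered negative ones. A difference of at least 2-fold was positive for 187 genes (2.09% of those compared) and negative for 58 genes (0.647%), or 245 either way (2.73%). The median over all 8963 genes was 0.03 with an SD of 0.41, and 54.3% of genes lay above 0. At least 4-fold differences were seen for 9 genes upward and 5 downward. The counting interval lay wholly past 2-fold for 78 of the 187 and 31 of the 58, and it included 0 for none of them. A library at or under the floor was found for 4 of the positive and 1 of the negative genes. Differences are on the log2(CPM + 1) scale, which understates the change of low genes.

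**Figure D1:**
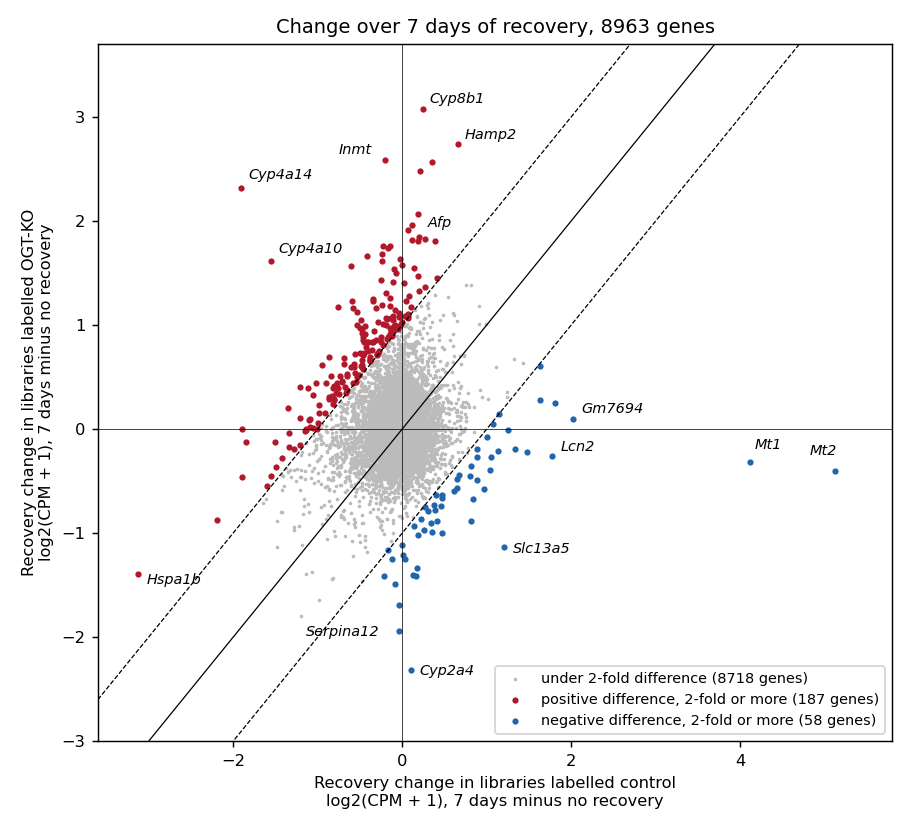
Each point is 1 of 8963 genes, with its log2(CPM + 1) change over 7 days in the libraries labelled control on the horizontal axis and in those labelled OGT-KO on the vertical axis. The solid line marks equal changes and the dashed lines a 2-fold difference, with 187 genes past it on the upper left (red) and 58 on the lower right (blue), and Mt1 and Mt2 farthest to the right.

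More of the positive genes rose under OGT-KO than fell under control. Of the 187 genes, 64 rose at least 2-fold in OGT-KO alone, where 1.04% of all compared genes rose that far. Another 27 fell at least 2-fold in control alone, where 0.96% of all genes fell. Only Cyp4a14 and Cyp4a10 moved at least 2-fold in opposite directions, and only Hspa1b fell in both. In the remaining 93 neither change reached 2-fold alone. All of those had a change above 0 in OGT-KO and below 0 in control. Among the 58 negative genes, 14 fell in OGT-KO alone (0.435% of all genes fell) and 15 rose in control alone (0.245% rose). Slc13a5 fell in OGT-KO and rose in control, and 28 reached 2-fold in neither.

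Many of the largest positive differences were of hepatocyte enzymes and plasma proteins that were low under the OGT-KO label with no recovery and part way back after 7 days. Cyp8b1, the sterol 12-alpha-hydroxylase that directs bile acid synthesis to cholic acid, had 5.16 CPM with no recovery and 51.0 CPM after 7 days under OGT-KO, against 348 and 412 CPM under control. Its difference was 2.84 (2.60 to 3.07). It stood at 1.48% of the control level before recovery and at 12.4% after, so the libraries of the 2 labels remained far apart. Inmt, indolethylamine N-methyltransferase, had 12.9 and 83.0 CPM under OGT-KO and 303 and 263 CPM under control (difference 2.79, 2.62 to 2.97). Serpina6, the corticosteroid-binding globulin of plasma, had 18.8 and 109 CPM under OGT-KO and 126 and 146.5 CPM under control (2.26, 2.10 to 2.42). Serpina6 came closest of these 3 to the control level, at 74.4% of it after 7 days. Ces3b, a carboxylesterase, had 4.24 and 30.0 CPM under OGT-KO against 693 and 887 CPM (2.21, 1.95 to 2.47), and was still at 3.38% of control after 7 days. In each of these 4 genes the change under control lay between -0.20 and 0.36.

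Several more enzymes of the same kind followed. Dio1, the deiodinase that converts thyroxine to its active form, had 1.53 and 7.00 CPM under OGT-KO and 169.7 and 127 CPM under control (2.08, 1.72 to 2.44). Cyp2c29, a drug-metabolizing cytochrome P450, had 66.8 and 226 CPM under OGT-KO and 1366 and 1218 CPM under control (1.91, 1.82 to 1.99). Klkb1, plasma prekallikrein, had 6.25 and 23.6 CPM under OGT-KO and 179 and 161 CPM under control (1.91, 1.66 to 2.15). These rose 3.38-fold to 4.57-fold under OGT-KO and by 7 days reached between 5.53% and 18.5% of the control level. Prodh2, hydroxyproline dehydrogenase, had 18.8 and 62.6 CPM under OGT-KO and 218 and 186 CPM under control (1.92). Ugt3a2, a UDP-glycosyltransferase, had 7.57 and 28.0 CPM under OGT-KO and 349.8 and 299 CPM under control (1.98). Akr1c19, an aldo-keto reductase, had 11.5 and 36.0 CPM under OGT-KO and 70.4 and 45.8 CPM under control (2.18). Of the last 3, Akr1c19 ended nearest to control, at 78.5% of it.

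**Figure D2:**
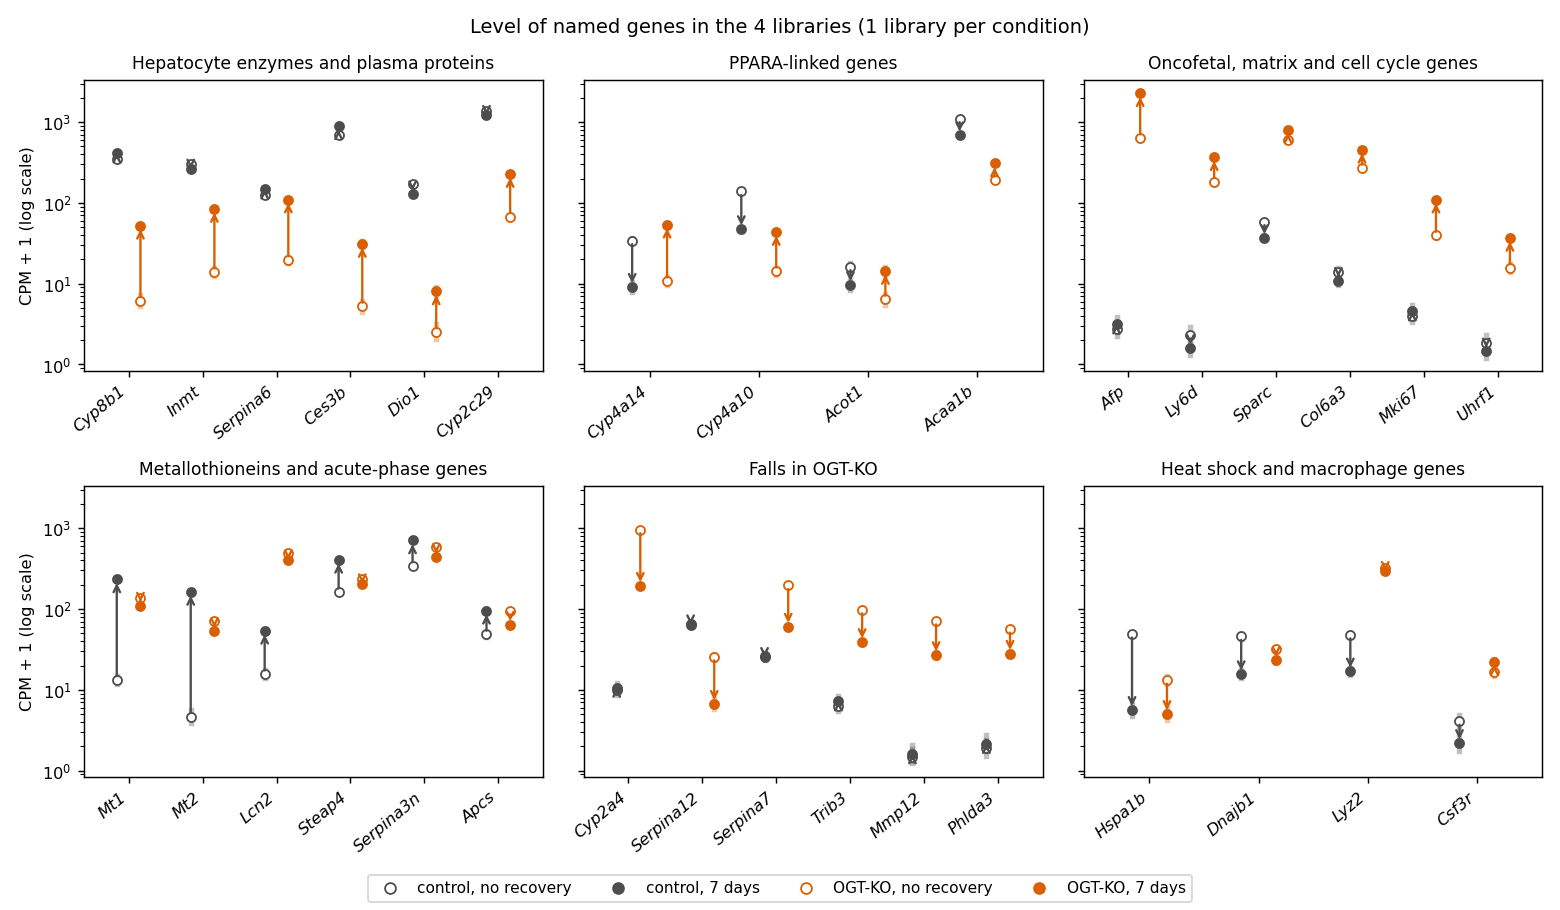
Levels of named genes in the 4 libraries as CPM + 1 on a log axis, with grey circles for control and orange circles for OGT-KO, open with no recovery and filled after 7 days, vertical bars for the 95% exact counting interval of each library and arrows from no recovery to 7 days. Hepatocyte enzymes such as Cyp8b1 move up under OGT-KO while control changes little. Mt1 and Mt2 move up under control and slightly down under OGT-KO, and Cyp4a14 and Cyp4a10 move in opposite directions.

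Genes of fatty acid handling that are textbook targets of the nuclear receptor PPARA gave the 2 largest positive differences. Cyp4a14 and Cyp4a10, neighbouring genes for omega-hydroxylases of fatty acids, went up under OGT-KO and down under control. Cyp4a14 had 9.75 and 52.7 CPM under OGT-KO and 33.2 and 8.16 CPM under control, a 5.40-fold rise against a fall to 0.246 of the starting level (4.22, 3.93 to 4.51). Cyp4a10 had 13.3 and 42.5 CPM under OGT-KO and 138 and 46.4 CPM under control (3.16, 2.95 to 3.36). The order of the labels turned for Cyp4a14, which was at 29.4% of control with no recovery and at 646% after 7 days, while Cyp4a10 ended at 91.7%. Acot1, a cytosolic acyl-CoA thioesterase, had 5.38 and 13.3 CPM under OGT-KO and 15.3 and 8.66 CPM under control (1.92, 1.56 to 2.28). Its order turned too, from 35.2% to 154% of control. Acaa1b, a peroxisomal thiolase, had 190.1 and 307 CPM under OGT-KO and 1107 and 688 CPM under control (1.37, 1.31 to 1.43), with neither change reaching 2-fold alone. These 4 were the called genes among 21 compared genes of fatty acid oxidation and ketogenesis. The list's median was 0.19 against 0.03 for all genes, and 16 of its 21 members had a change below 0 in control as deposited. With upper-quartile and median-ratio scaling 11 and 10 of the 21 were above 0 there, in place of 5. Cyp4a12b, a male-biased relative beside Cyp4a14 in the order of compared genes, had 13.2 and 20.4 CPM under OGT-KO and 177 and 116 CPM under control (1.20). Members of the Cyp4a family share sequence, so the split of reads between them is uncertain.

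Cholesterol synthesis genes leaned to the positive side as a group. Of 23 compared genes of sterol synthesis and LDL uptake, 3 were called positive (2.09% of all genes were) and none negative (0.647% were), the median was 0.49, and 22 lay above 0. Under OGT-KO all 23 had a change above 0 (median 0.50), and under control 14 did (median 0.02), a count that became 18 with upper-quartile or median-ratio scaling of the libraries. Hsd17b7, a 3-ketosterol reductase of the pathway, had 4.07 and 18.7 CPM under OGT-KO and 55.8 and 60.4 CPM under control (1.85, 1.55 to 2.14). Stard4, a cholesterol carrier, had 21.2 and 42.5 CPM under OGT-KO and 106 and 99.0 CPM under control (1.08). Insig1, which holds back the sterol sensor SCAP, had a difference of 0.98 and Sqle, squalene epoxidase, the lowest of the list at -0.23. The 17 compared genes of de novo lipogenesis had a median of 0.29 with none called, and Fads2, a fatty acid desaturase, was at 0.73.

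Other metabolic lists held a few called members each. In the methionine and one-carbon list (20 compared, median 0.28) Nnmt, nicotinamide N-methyltransferase, had 23.5 and 54.3 CPM under OGT-KO and 114 and 122 CPM under control (1.07). Bhmt, which remethylates homocysteine from betaine, a product of the choline that the diet lacks, had 675 and 1361 CPM under OGT-KO and 2298 and 2271 CPM under control (1.03, 0.99 to 1.06). Mat1a and Mat2a, the liver and non-liver forms of methionine adenosyltransferase, were at -0.25 each. Urea cycle and amino acid genes (26 compared, median 0.34) had 2 positive calls, Prodh2 among them. Gpt2, the mitochondrial alanine aminotransferase, was lowest there at -0.90. Gluconeogenic and fasting genes split. G6pc, glucose-6-phosphatase, had 60.4 and 82.7 CPM under OGT-KO and 318 and 156 CPM under control (1.47), a fall in control alone. Fbp1, fructose-1,6-bisphosphatase, had 226 and 427 CPM under OGT-KO and 762 and 688 CPM under control (1.06). Lpin1, a phosphatidate phosphatase and transcriptional coactivator, had 118 and 43.8 CPM under OGT-KO and 98.0 and 84.1 CPM under control (-1.19), and the median of the 12 compared was -0.01.

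Bile acid genes were called on both sides. Slc10a1, the sodium-dependent bile acid importer NTCP, had 35.9 and 99.9 CPM under OGT-KO and 363 and 483 CPM under control (1.04, 0.92 to 1.16). Slco1a1, an organic anion importer that is also on the male-biased list, had 14.9 and 5.85 CPM under OGT-KO and 279.5 and 282 CPM under control (-1.23, -1.49 to -0.97). Slc10a2, the bile acid transporter ASBT, had 3.94 and 8.64 CPM under OGT-KO and 41.5 and 29.5 CPM under control (1.44). With Cyp8b1, the list of 20 compared genes had 2 positive and 1 negative call and a median of 0.17, and Slc10a2, which is not on it, was named for its size. Of 30 hepatocyte identity genes Dio1 was the 1 called, and the median was 0.26, with 22 above 0. Apoa1, the main HDL protein, was lowest in that list, with 3050 and 2964 CPM under OGT-KO and 9258 and 11579 CPM under control (-0.36).

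Iron and erythroid genes were positive in part. Hamp2, a relative of the iron hormone hepcidin, had 8.70 and 63.8 CPM under OGT-KO and 6.02 and 10.1 CPM under control (2.08, 1.74 to 2.42). Unlike the enzymes above, it began near the control level, at 145%, and ended at 634% of it. Tfrc, the transferrin receptor, had 35.3 and 45.1 CPM under OGT-KO and 28.5 and 16.1 CPM under control (1.13). Id2 (-0.94) and Id3 (-0.79), targets of BMP signalling, were lowest, and the 16 compared genes of the list had a median of 0.05. Alas2, the first enzyme of haem synthesis in red cell precursors, had 10.1 and 24.0 CPM under OGT-KO and 213 and 171 CPM under control (1.48), and Hba-a2, an alpha-globin, had 9.80 and 12.2 CPM under OGT-KO and 14.4 and 7.86 CPM under control (1.09). The 4 compared erythroid genes had a median of 0.998, all with a change above 0 in OGT-KO and below 0 in control. The 8 erythroid genes in the table summed to 110 and 164 CPM under OGT-KO and 361 and 279 CPM under control, none of them at 0 in all libraries. Alas2 made up most of the control sum. Of the 8, 1 was higher under OGT-KO than under control with no recovery and 5 were after 7 days. The part of blood content in these differences was not tested.

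Oncofetal and cell cycle genes had positive differences, and most of them were already higher under OGT-KO before recovery. Afp, alpha-fetoprotein of the fetal liver, had 632 and 2272 CPM under OGT-KO and 1.74 and 2.15 CPM under control (1.64, 1.22 to 2.06). Ly6d, a membrane protein of the Ly6 family, had 182 and 366 CPM under OGT-KO and 1.32 and 0.601 CPM under control (1.53, 1.10 to 1.97). These were the 2 called among 6 compared oncofetal genes (median 0.45), and Gpc3, glypican 3, was at -0.04. Mki67, a marker of cycling cells, had 38.5 and 109 CPM under OGT-KO and 3.01 and 3.55 CPM under control (1.29, 0.90 to 1.68). All 14 compared mitosis genes had a difference above 0, with a median of 0.81, and Mki67, Ccnb2 (1.19) and Top2a (1.01) were called. Among 18 DNA replication genes the median was 0.56 with 17 above 0. Uhrf1, which couples DNA methylation to replication, had 14.7 and 35.8 CPM under OGT-KO and 0.847 and 0.451 CPM under control (1.58, 1.12 to 2.04). Tk1, thymidine kinase 1, had 13.8 and 26.3 CPM under OGT-KO and 21.5 and 15.3 CPM under control (1.35), and Mcm3, a subunit of the replicative helicase, was at 1.24. All 14 mitosis and all 18 replication genes had a change above 0 under OGT-KO with each of the 3 scalings. The 24 mitosis genes in the table summed to 396 and 808 CPM under OGT-KO and to 37.8 and 45.9 CPM under control. The 16 oncofetal genes in the table summed to 1182 and 3097 CPM against 22.9 and 22.6 CPM. Many members thus passed the mean filter through the OGT-KO libraries, so their shared sign carries no test.

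Matrix genes leaned to the same side. Of 36 compared matrix and myofibroblast genes, 31 lay above 0, the median was 0.45, and all 36 were above the control level with no recovery. Members could thus pass the mean filter through the OGT-KO libraries, so their shared sign carries no test. Sparc, a matricellular protein, had 602 and 799 CPM under OGT-KO and 57.8 and 35.8 CPM under control (1.08, 0.95 to 1.21). Col6a3, a collagen VI chain, had 267 and 453 CPM under OGT-KO and 12.9 and 9.86 CPM under control (1.12). Lox, the collagen cross-linking lysyl oxidase, was the positive call nearest to the threshold at 1.002, with 30.4 and 41.9 CPM under OGT-KO and 13 and 2 reads under control. In this list the median change was 0.07 under OGT-KO and -0.37 under control. Mmp12, macrophage elastase, which is also on the macrophage list, was its only negative call and is described below. The summed level of the 38 genes in the table was 9364 and 10662 CPM under OGT-KO and 2372 and 2527 CPM under control. Bile duct and progenitor markers (19 compared) had a median of 0.03 with none called. Prom1 was highest at 0.61 and Krt18 lowest at -0.43.

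Heat shock and macrophage genes had positive differences with larger falls under control. Hspa1b, an inducible HSP70 gene, had 12.2 and 4.03 CPM under OGT-KO and 48.2 and 4.66 CPM under control (1.73, 1.35 to 2.11). It fell under both labels, and the libraries after 7 days were nearly level. Its twin Hspa1a is near-identical, so reads cannot be assigned to one of them with certainty. Dnajb1, an HSP70 co-chaperone, had 31.0 and 22.4 CPM under OGT-KO and 45.0 and 14.7 CPM under control (1.10), and Serpinh1, the collagen chaperone HSP47, had 151 and 199 CPM under OGT-KO and 21.7 and 11.9 CPM under control (1.21). All 14 compared heat shock genes had a difference above 0 (median 0.60) and a change below 0 in control. Sdf2l1, an endoplasmic reticulum chaperone, had 29.7 and 29.9 CPM under OGT-KO and 70.1 and 33.2 CPM under control (1.06). It was the positive call among 19 compared genes of the unfolded protein and integrated stress response, whose median was 0.19.

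Lyz2, lysozyme of macrophages and neutrophils, had 319 and 293 CPM under OGT-KO and 47.1 and 15.9 CPM under control (1.38, 1.20 to 1.56). C1qb, a complement subunit made by Kupffer cells, stood just outside the threshold, with 201 and 155 CPM under OGT-KO and 40.7 and 15.1 CPM under control. Of 20 compared Kupffer cell and macrophage markers, 17 lay above 0 and the median was 0.75. All 20 were above the control level with no recovery. Members could thus pass the mean filter through the OGT-KO libraries, so their shared sign carries no test. Lyz2 was the positive call and Mmp12 (-1.53) the negative one, and Gpnmb was at -0.51 (0.20 at a pseudocount of 0.1). The list had a median change of -0.46 under OGT-KO and -1.22 under control. The 25 markers in the table summed to 3543 and 3182 CPM under OGT-KO and to 534 and 245 CPM under control, and none was at 0 in all libraries. Csf3r, the G-CSF receptor of neutrophils, had 15.5 and 21.4 CPM under OGT-KO and 3.10 and 1.20 CPM under control (1.34), the only compared member of its list, whose 9 genes in the table summed to at most 53.5 CPM. MHC class II and dendritic cell genes (5 compared) had a median of 0.67 with none called, and Cd74, the invariant chain, was highest at 0.92. Chemokines and cytokines (9 compared, median 0.22) had Ccl9 called at 1.07. Endothelial markers had a median of 0.13 over 17 genes with none called, from 0.68 for Eng to -0.91 for Lyve1. The part that macrophage content had in these differences was not tested.

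Further genes were called through a fall in control. Ckb, brain-type creatine kinase, had 50.4 and 67.0 CPM under OGT-KO and 7.20 and 2.55 CPM under control (1.61). Clstn3, calsyntenin 3, had 8.83 and 10.3 CPM under OGT-KO and 26.6 and 9.81 CPM under control (1.55). Celsr1, a cadherin of planar cell polarity, had 15.1 and 20.2 CPM under OGT-KO and 21.5 and 9.41 CPM under control (1.51). Clstn3 ended at 105% of the control level and Celsr1 at 215%. Mup9 and Moxd1 had almost no reads under OGT-KO. Mup9, a major urinary protein gene, had 1 read in each library labelled OGT-KO against 61.3 and 15.8 CPM under control (1.89), and Moxd1, a monooxygenase-like gene of the male-biased list, had 2 and 0 reads against 100.1 and 27.2 CPM (1.72). For both, the reads under OGT-KO were at or under the floor, so the difference is in effect the change under control and depends on the pseudocount. Mup18 was similar, with 1 and 6 reads against 143 and 81.3 CPM (1.08). Mup22, on no list and named after its values were seen, rose from 6 to 77 reads (0.262 to 3.41 CPM) under OGT-KO and had 251 and 286 CPM under control (1.62). The 14 compared Mup genes had a median of 0.38, and the 18 in the table summed to 2300 and 1973 CPM under OGT-KO and to 21206 and 17813 CPM under control. Their near-identical sequences make each member uncertain. Of 22 male-biased genes 2 were positive and 1 negative (median 0.24), and of 3 compared female-biased genes 1 was negative (median 0.21). All 22 male-biased genes were below the control level with no recovery. Their median gap was -3.83 then and -3.47 after 7 days. Whether the mice of the 2 labels differed in sex was not tested.

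Where neither change reached 2-fold alone, the changes under the 2 labels had opposite signs, as the rule then requires. Csad, a taurine synthesis enzyme, had 76.1 and 124 CPM under OGT-KO and 287 and 156 CPM under control (1.56, 1.46 to 1.67). Unc13b, a vesicle priming factor, had 11.0 and 17.4 CPM under OGT-KO and 13.7 and 6.61 CPM under control (1.57). Phlda1 had 33.2 and 66.0 CPM under OGT-KO and 235 and 167 CPM under control (1.46). Csad thereby went from 26.5% to 79.1% of control, and Phlda1 from 14.1% to 39.6%. Egr1, an immediate early transcription factor, had 40.3 and 67.6 CPM under OGT-KO and 57.2 and 40.2 CPM under control (1.23).

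The negative side was led by the metallothioneins, small cysteine-rich proteins that bind zinc and copper and are induced by metals, glucocorticoids and inflammation. Mt1 and Mt2 rose steeply in control and stayed level under OGT-KO. Mt2 had 3.67 CPM with no recovery and 162 CPM after 7 days under control, and 69.4 and 52.3 CPM under OGT-KO (-5.53, -5.80 to -5.25). Mt1 had 12.4 and 231 CPM under control and 136 and 109 CPM under OGT-KO (-4.43, -4.62 to -4.25). The control rise was 44.1-fold for Mt2 and 18.7-fold for Mt1. Both were above control before recovery, Mt2 at 1891% and Mt1 at 1100% of its level, and both were below it after 7 days, at 32.3% and 47.3%. They were the only called genes whose order turned from at least 2-fold higher to at least 2-fold lower under OGT-KO. Slc39a14, the zinc importer ZIP14, had 184 and 326 CPM under control and 203 and 159 CPM under OGT-KO (-1.17, -1.26 to -1.09). The 6 compared genes of the list had a median of -0.81, and the exporters Slc30a1 (-0.44) and Slc30a10 (0.12) were not called.

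Since Mt1 and Mt2 lie side by side and moved together, their promoters are shown. Sequences are the 250 bases before the start of each gene from RefSeq (GRCm38.p6, plus strand), at chr8:94178839-94179088 for Mt1 and chr8:94172368-94172617 for Mt2. Capitals mark matches to the core of the metal response element, searched as TGCACNC and TGCGCNC on both strands.
Mt1: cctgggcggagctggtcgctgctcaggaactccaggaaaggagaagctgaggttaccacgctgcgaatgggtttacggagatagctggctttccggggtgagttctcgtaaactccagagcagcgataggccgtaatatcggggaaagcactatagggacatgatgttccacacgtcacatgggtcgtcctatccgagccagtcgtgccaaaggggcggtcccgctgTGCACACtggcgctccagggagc
Mt2: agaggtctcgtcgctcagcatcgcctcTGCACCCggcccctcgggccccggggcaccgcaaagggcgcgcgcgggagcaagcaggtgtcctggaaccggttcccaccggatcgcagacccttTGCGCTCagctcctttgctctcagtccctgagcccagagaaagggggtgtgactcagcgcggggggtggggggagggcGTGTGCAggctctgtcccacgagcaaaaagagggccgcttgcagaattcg
Mt1 had 1 match, 23 bases before the annotated start, and Mt2 had 3, at 223, 128 and 50 bases before it. Only these 250 bases were searched, so any match past the annotated start or further upstream would be missed. Whether Mt1 has fewer matches than Mt2 over the whole promoter was therefore not tested. TGCACNC occurred in 10.4% and TGCGCNC in 12.5% of 32851 promoters of the same length, either in 21.4%, and 3 or more matches in 1.26%. A match describes the letters in this window and is not a measured binding site.

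Acute-phase genes, which the liver turns on in response to inflammation, were also negative through control. Of 23 compared, 5 were called, all negative, 18 lay below 0, and the median was -0.48. Under control 21 of the 23 had a change above 0 with a median of 0.47, against 9 under OGT-KO (11 with either other scaling) with a median of -0.08. Lcn2, lipocalin 2, an iron-siderophore binding protein, had 14.7 and 52.8 CPM under control and 487 and 406 CPM under OGT-KO (-2.04, -2.22 to -1.86). Steap4, a metalloreductase, had 161 and 406 CPM under control and 235 and 206 CPM under OGT-KO (-1.52, -1.60 to -1.44). Serpina3n, a protease inhibitor, had 342 and 705 CPM under control and 577 and 439 CPM under OGT-KO (-1.44, -1.49 to -1.38). These 3 rose at least 2-fold in control, and Steap4 ended at 50.7% and Serpina3n at 62.2% of the control level while Lcn2 remained above it. Serpina3m had 95.9 and 178 CPM under control and 270.1 and 192 CPM under OGT-KO (-1.37), and Apcs, serum amyloid P, had 47.5 and 94.2 CPM under control and 94.2 and 62.9 CPM under OGT-KO (-1.55). The fibrinogen chains Fga, Fgb and Fgg lay at -0.64 to -0.75, Saa2 at -0.80 and Saa1 at -0.24. Orm2 (0.62) and Crp (0.57) were highest, so the acute-phase genes did not all share a sign.

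**Figure D3:**
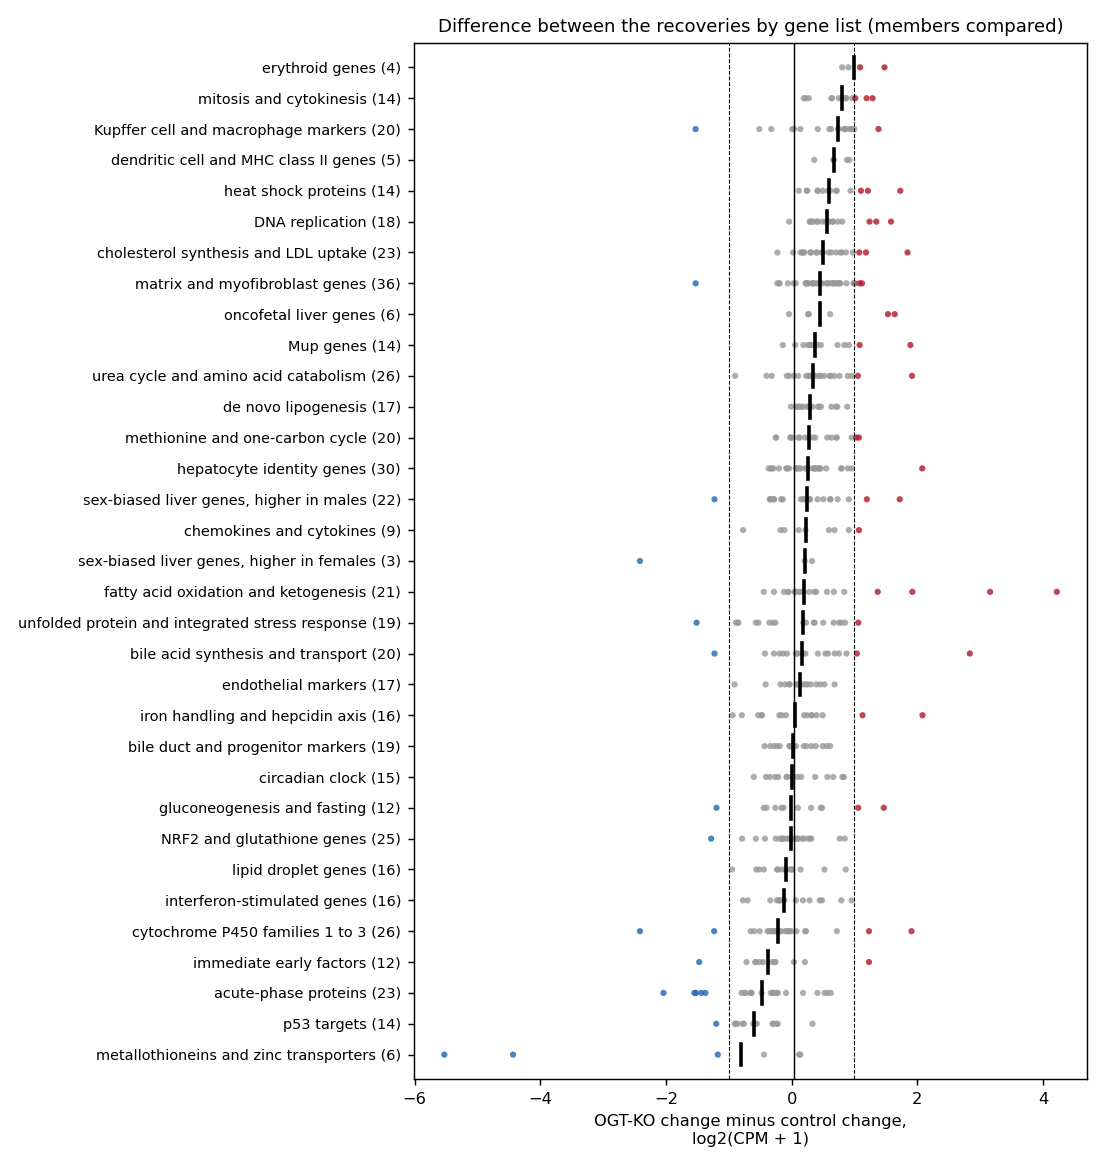
Difference between the recoveries, on the log2(CPM + 1) scale, for every compared member of each gene list with at least 3 compared members, with the number compared in parentheses, black bars for list medians, the solid line for the median of all genes (0.03) and dashed lines at 2-fold. Red points are positive calls and blue points negative calls, and the lists run from erythroid genes (median 0.998) and mitosis (0.81) at the top to p53 targets (-0.60) and metallothioneins and zinc transporters (-0.81) at the bottom.

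Further genes rose in control alone. Gm7694, a predicted gene, had 8.89 and 39.0 CPM under control and 12.5 and 13.4 CPM under OGT-KO (-1.92). B3galt1, a galactosyltransferase, had 24.1 and 69.0 CPM under control and 12.2 and 10.3 CPM under OGT-KO (-1.70). Scara5, a ferritin receptor, had 12.7 and 46.9 CPM under control and 9.14 and 11.0 CPM under OGT-KO (-1.56). After 7 days they were at 34.4%, 14.9% and 23.5% of the control level. In 2 more genes neither change reached 2-fold alone. Inhbe, which encodes the activin E subunit of hepatocytes, had 47.6 and 84.5 CPM under control and 108 and 58.2 CPM under OGT-KO (-1.69, -1.84 to -1.55), and mt-Nd3, a mitochondrial complex I gene, had 11.0 and 20.4 CPM under control and 25.3 and 15.5 CPM under OGT-KO (-1.51).

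Another group of negative genes fell under OGT-KO. Cyp2a4, a steroid hydroxylase that is female-biased in mouse liver, had 963 and 193 CPM under OGT-KO and 8.94 and 9.66 CPM under control (-2.41, -2.68 to -2.15). It was the largest fall under OGT-KO and left the gene at 2000% of control. Its near-identical relative Cyp2a5 makes the split of reads uncertain. Serpina12, vaspin, had 24.7 and 5.72 CPM under OGT-KO and 65.0 and 63.2 CPM under control (-1.90, -2.16 to -1.63), and Serpina7, the thyroxine-binding globulin, had 195 and 59.7 CPM under OGT-KO and 25.0 and 24.3 CPM under control (-1.66, -1.85 to -1.47). Serpina12 thus moved away from control and Serpina7 toward it. Slc13a5, the citrate importer of hepatocytes, went the opposite way under the control label. It had 28.6 and 12.5 CPM under OGT-KO and 1.32 and 4.36 CPM under control (-2.35, -2.78 to -1.91). Wnt4, a secreted Wnt ligand, had 44.7 and 16.1 CPM under OGT-KO and 1.55 and 1.85 CPM under control (-1.57). Mmp12 had 70.5 and 26.0 CPM under OGT-KO and 0.470 and 0.601 CPM under control (-1.53). After 7 days the level of Wnt4 was still 871% and that of Mmp12 4329% of control. Cyp3a13, a cytochrome P450 with a change of -0.97 under OGT-KO, had 128 and 64.7 CPM under OGT-KO and 129 and 155 CPM under control (-1.23). Among 26 compared genes of P450 families 1 to 3, Cyp2c29 and Cyp2c55 (1.23) were positive, Cyp2a4 and Cyp3a13 negative, and the median was -0.22 with 20 below 0.

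Targets of p53 leaned to the negative side with larger falls under OGT-KO. Of 14 compared p53 targets, 13 lay below 0 with a median of -0.60, and the median change was -0.80 under OGT-KO and -0.11 under control. All 14 were above the control level with no recovery. Members could thus pass the mean filter through the OGT-KO libraries, so their shared sign carries no test. Phlda3, a p53-induced repressor of AKT, was the 1 called, with 55.6 and 27.0 CPM under OGT-KO and 0.894 and 1.15 CPM under control (-1.20, -1.66 to -0.74). Cdkn1a, the cell cycle inhibitor p21, fell under OGT-KO from 191 to 93.1 CPM, and had 10.9 and 5.86 CPM under control (-0.24), so its difference was small. Gtse1, a mitotic gene of the list, was the exception above 0, at 0.33. Trib3, a pseudokinase induced by ATF4 and CHOP, had 97.3 and 38.1 CPM under OGT-KO and 5.36 and 6.21 CPM under control (-1.51, -1.84 to -1.18). Dusp1, a phosphatase of MAP kinases, had 39.7 and 19.4 CPM under OGT-KO and 19.6 and 27.5 CPM under control (-1.47). The 12 compared immediate early genes had a median of -0.38, with Dusp1 negative and Egr1 positive. Cbr3, a carbonyl reductase of the NRF2 list, had 74.2 and 30.6 CPM under OGT-KO and 0.470 and 0.501 CPM under control (-1.28). The other 24 NRF2 and glutathione genes compared were not called. Srxn1, sulfiredoxin, was at -0.79 and Gstm3, a glutathione transferase, at 0.85, around a list median of -0.01.

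Other lists had no call. Circadian clock genes (15 compared) had a median of 0.00, from 0.83 for Hlf to -0.60 for Per1, which fell at least 2-fold under both labels. Lipid droplet genes (16 compared) had a median of -0.10, with Lpl at 0.86 and Cidec, a droplet fusion protein, at -0.95. Interferon-stimulated genes (16 compared) had a median of -0.12, with Oasl2 at 0.96 and Usp18 at -0.77. Of the adipose, mesothelial and muscle genes Myh11 alone was compared, at 0.29. Of the 245 called genes, 62 were on a list and 183 were on none. Each list's calls are to be read against 2.09% positive and 0.647% negative among all genes compared.

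Some genes on no list were named after their values were seen. Fabp1, the fatty acid-binding protein of hepatocytes, had 323 and 949 CPM under OGT-KO and 3629 and 3994 CPM under control (1.41). Pigr, the receptor that carries IgA into bile, had 43.2 and 117 CPM under OGT-KO and 1451 and 1343 CPM under control (1.52). Apom, a carrier of sphingosine 1-phosphate, had 28.9 and 85.8 CPM under OGT-KO and 202 and 188 CPM under control (1.64). These 3 rose under OGT-KO alone, as did Eln, elastin, with 156 and 351 CPM under OGT-KO and 5.88 and 3.60 CPM under control (1.75). Itga8, an integrin subunit, had 26.7 and 64.0 CPM under OGT-KO and 5.17 and 3.10 CPM under control (1.82). On the negative side, Arrdc3, an arrestin-like adaptor, had 74.7 and 90.6 CPM under OGT-KO and 72.8 and 228 CPM under control (-1.36). Il1r1, the interleukin 1 receptor, had 66.9 and 66.6 CPM under OGT-KO and 50.8 and 123 CPM under control (-1.26). Slc20a1, a phosphate transporter, had 301 and 152 CPM under OGT-KO and 22.9 and 29.6 CPM under control (-1.34). Arrdc3 and Il1r1 rose under control, and Slc20a1 changed by -0.98 under OGT-KO.

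A difference can bring the labels together or take them apart. With no recovery, 83 of the 187 positive genes were at least 2-fold lower under OGT-KO than under control (5.69% of all compared genes were), 40 were within 2-fold and 64 were at least 2-fold higher (24.4% of all, and 30.1% were apart either way). After 7 days, 53 of the 83 were still lower, 29 were within 2-fold and Cyp4a14 was higher. All 64 that began higher stayed higher, and 20 of the 40 became higher. Among the 58 negative genes, 33 began higher, of which 19 stayed so, 12 came within 2-fold and Mt1 and Mt2 ended lower. Another 21 began within 2-fold, of which 9 ended lower, and 4 were lower throughout. At 7 days, 22.9% of all compared genes were higher and 4.27% lower. The gap was nearer to 0 after 7 days for 91 of the 187 and 38 of the 58, against 55.1% of all genes. The libraries with no recovery enter both the gap and the difference, so these shares describe the genes and carry no test. They also move with the scaling of the libraries, since the median gap of all genes with no recovery was 0.51 as deposited, 0.07 with upper-quartile and -0.19 with median-ratio scaling. With the last, 101, 32 and 54 of the 187 began lower, within 2-fold and higher, and the gap was nearer to 0 for 108 of the 187 and 31 of the 58.

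**Figure D4:**
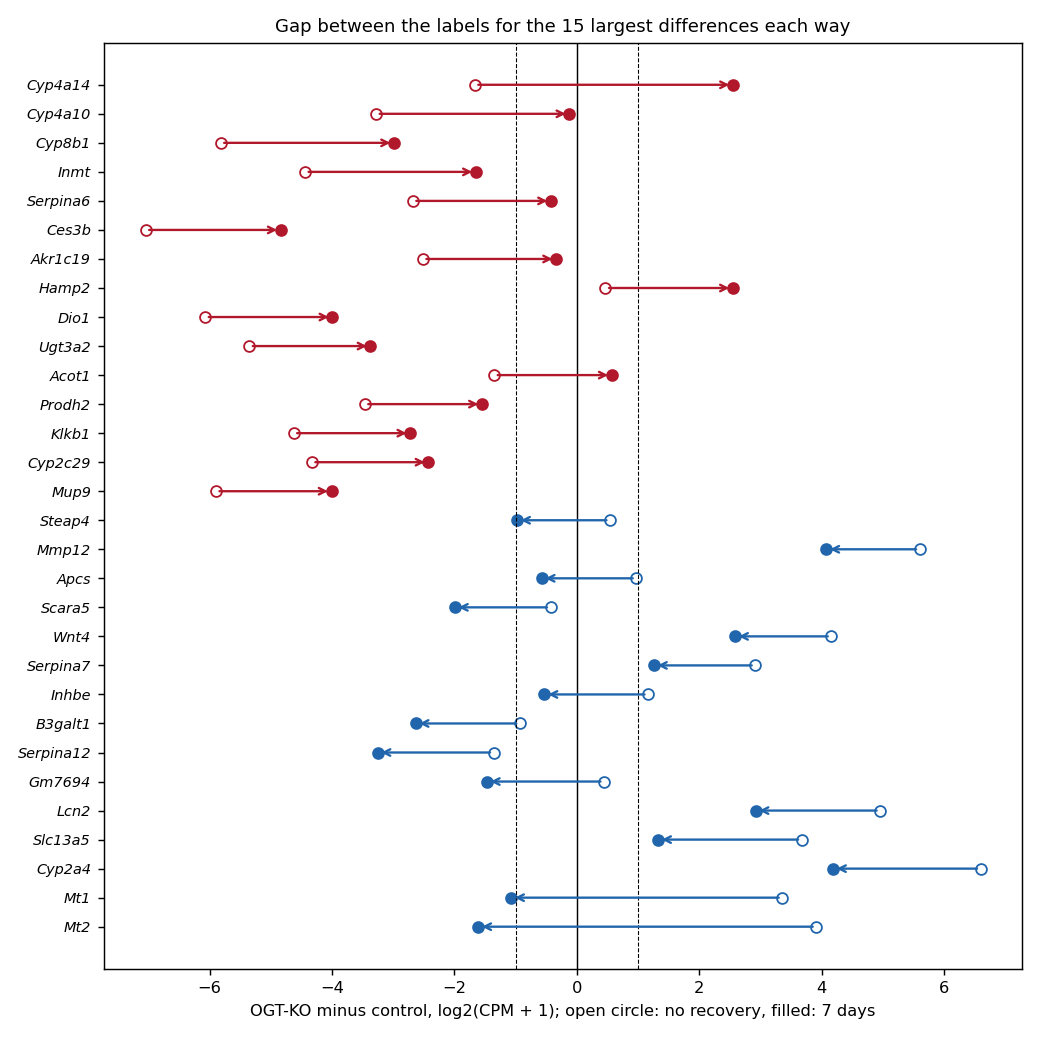
Log2(CPM + 1) gap between the labels, OGT-KO minus control, for the 15 largest positive (red) and 15 largest negative (blue) differences, with open circles for no recovery, filled circles for 7 days and dashed lines at 2-fold. Most red arrows run from far below 0 toward 0, Cyp4a14 and Acot1 cross to the other side, and the Mt1 and Mt2 arrows run from far above 0 to below -1.

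Called genes were in places next to each other in the order of the compared genes along the genome. That order came from RefSeq (GRCm38.p6), in which 8879 of the 8963 compared genes were found. Genes not compared were passed over, so neighbours here need not be adjacent in the genome. In that order 31 of the 245 lay beside another called gene, in 15 runs. In 14 runs the members had the same sign, among them Cyp4a12b, Cyp4a14 and Cyp4a10, Acot1 and Acot4, Afp and Afm, Mt2 and Mt1, and Serpina3m and Serpina3n. Slc13a5 and Ggt6 had opposite signs. Of all compared genes 2.73% were called, and 187 of the 245 calls were positive. Some neighbours of the same sign would therefore be found in any gene order, and whether these runs exceed that was not tested. Several runs are close relatives, such as the Cyp4a and Serpina3 genes, which are uncertain singly. The Serpina cluster on chromosome 12 held both signs, with Serpina6 (2.26) and Serpina1d (1.12) positive and Serpina12 (-1.90), Serpina3n (-1.44) and Serpina3m (-1.37) negative. Serpina1a, Serpina1b, Serpina1c and Serpina1e, close copies of Serpina1d, lay between -0.28 and 0.55.

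The genes nearest to the thresholds show how fine the calls were. On the positive side Lox was just inside at 1.002 and C1qb just outside at 0.999936, and on the negative side Ifrd1 was inside at -1.001 and Trim24 outside at -0.995. Of the mean filter, Tlr3 was just inside at 10.0003 CPM and P4ha2 just outside at 9.99953 CPM.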

How the data were processed

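Whole-liver mRNA libraries of 4 conditions, 1 library each, were analysed. Per the labels, mRNA libraries were prepared from TRIzol RNA. STAR, DESeq2 and the build GRCm39 are named in the submitters' processing notes, with no role or version. The authors deposited a table of 13903 genes named as DESeq2 normalized, but each column sums to 1000000, so the deposited values are CPM. Within a tolerance of 0.01, 100% of values were whole multiples of the value of 1 read, and the reads were recovered. The filter that left these genes is not stated.

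The contrast, on log2(CPM + 1), and the 2-fold call were used as designed. The design assumed normalized values of a unit not yet known. Exact Clopper-Pearson 95% intervals per library and delta-method intervals for differences cover counting error only. With 1 library per condition no test of the conditions was made.

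The members and the 37 gene lists were chosen with earlier results of these data known. Lists with under 3 compared members got no median. Genes were named by rule, as the 15 largest differences each way, the 10 largest with a mean of at least 50 CPM, the 5 largest in each pattern of change, called list members, the 2 largest each way in the lists, and Ogt and Oga. Genes outside this rule are marked, except list members, neighbouring genes and genes at a threshold that show a range. A few genes of the rule are not reported here.

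Alternatives were pseudocounts of 0.1 and 10, no filter, a mean of at least 50, at least 10 CPM in every library, upper-quartile and median-ratio scaling, a 4-fold threshold, an exact conditional test on the reads with Benjamini-Hochberg adjustment, which compares libraries and not conditions, and thinning to the smallest library. Scaling checks on gaps and on directions within lists were added after the data were seen. Steps were tested on simulated data. Near-identical genes (Mup, Cyp2a4 and Cyp2a5, Cyp2c, Cyp4a, Hspa1a and Hspa1b, Ces, Ugt, Serpina1 and Serpina3) are uncertain singly. Promoters and gene order came from RefSeq tables of GRCm38.p6, and no coordinates were converted. Promoters were matched by symbol, and gene order by Ensembl ID and, failing that, by symbol. Python 3.11.15, numpy 2.4.6, pandas 2.3.3, scipy 1.17.1 and matplotlib 3.10.9 were used.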

Additional observations from a re-analysis of the deposited data

Results flagged for a closer look

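The recovery changes went at least 2-fold in opposite directions under the 2 labels for 3 genes. Cyp4a14 changed by 2.32 under OGT-KO and by -1.90 under control on the log2(CPM + 1) scale, a difference of 4.22. Cyp4a10 changed by 1.61 and -1.55, a difference of 3.16. Slc13a5 changed by -1.14 and 1.21, a difference of -2.35, on 28 and 87 reads under control. With 1 library per condition these differences were not tested. Outlying samples could not be looked for, since no condition has more than 1 library.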

How the results depend on the processing

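Each condition has 1 library, so there was none to leave out, and calls rest on a rule of size. No paired analysis was possible because each condition has 1 library. Depth limits the low genes, with 3 reads worth up to 0.150 CPM.

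The 187 positive and 58 negative genes, and the 78, 42, 3, 1 and 121 of them that moved in OGT-KO only, control only, in opposite directions, in the same direction and in neither alone, compare as follows, in that order. A pseudocount of 10 gave 54 and 32 genes, with 39, 14 and 31 in OGT-KO only, control only and neither, and 0 in the same direction. No filter gave 351 and 143, with 177, 68, 242 and, in the same direction, 3. A mean of at least 50 gave 73 and 20, with 38, 12, 1, 0 and 42. At least 10 in every library gave 85 and 34, with 38, 17, 1, 0 and 63. The 4-fold threshold gave 9 and 5, with 7, 2, 0, 0 and 5. A pseudocount of 0.1 raised control only to 83. The higher counts without a filter and the lower ones under stricter filters or thresholds follow from the number of genes admitted, and the cause of the other shifts was not tested. Counts stayed within 1.5 times under both scalings (189 and 56 with upper-quartile, 212 and 51 with median-ratio scaling), thinning (191 and 57) and the exact test on reads (184 and 56), which on its own passed 2394 genes upward and 1602 downward at an adjusted p under 0.05, and which 5 of the 245 called genes did not pass. The positive share of the calls, 76.3%, was 62.8% with a pseudocount of 10 and 64.3% at 4-fold.

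Of 502 recomputed differences of called named genes, 502 kept their direction and 469 their 2-fold size. The filter settings leave a gene's own value as it was, so only the pseudocounts and the scalings could alter it. These counts therefore overstate how far the values were put to a check. Of 223 recomputed list medians, 16 turned sign, 5 of them with a value more than 0.1 from 0 before or after, which were circadian clock (-0.21) and iron handling (-0.12) at a mean of at least 50, and gluconeogenesis (0.10), the unfolded protein response (-0.034) and interferon-stimulated genes (0.0017) with no filter. With another scaling 2 turned, both within 0.1 of 0, which were gluconeogenesis (0.02) and the NRF2 list (0.02) with median-ratio scaling.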
